A study of Mus musculus with 9 samples.

Results

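The adrenomedullin, natriuretic peptide and endothelin systems are 3 families of secreted peptides and receptors that set vessel tone and permeability. Their genes were examined in whole mouse corneas as 10 genes, chosen by symbol. Each gene was represented by the row of the deposited table with its symbol alone and, for a gene with several such rows, by the one with the highest mean over the 9 arrays. A row was found for 9 of the 10 genes among the 22180 genes measured: Adm, Nppa, Nppb and Edn1 encode ligands, and Calcrl, Ramp2, Ramp3, Npr1 and Ednrb encode receptors or receptor subunits. Ednra, the gene for the type A endothelin receptor, was not analysed here.

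The rescued corneas carried the corn1 mutation of Dstn, the gene for the actin depolymerising protein destrin, and had Srf, which encodes serum response factor, a transcription factor for actin and contractile genes, ablated genetically in the corneal epithelium. The mutant corneas carried the Dstn corn1 mutation with no Srf ablation given in the labels, and the third group was wild type (WT). All 3 groups received doxycycline by intraperitoneal injection from postnatal day 28 to 58, were collected at day 58 and had a mixed background of FVB, Swiss Black, 129, C57BL6/J and A.BY. Each group had 3 pools, each made of 10 corneas from 5 mice and measured on 1 array. The sources used here do not name the promoter that drove the ablation, and a pool of whole corneas holds epithelium, stroma and any vessels or blood cells present. Fewer cells of a type and less RNA per cell cannot be told apart in such pools.

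Adrenomedullin acts through the calcitonin receptor-like receptor, Calcrl, which needs an accessory protein, Ramp2 or Ramp3, to bind it, and is known for relaxing vessels and sealing endothelium. Nppa and Nppb encode atrial and B-type natriuretic peptide, which are best known as cardiac hormones and signal through the guanylyl cyclase receptor Npr1. Endothelin 1, cut from its precursor by endothelin-converting enzyme, constricts vessels through the type A receptor and acts on endothelium, melanocytes and other cells through the type B receptor, Ednrb.

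The 9 arrays had median log2 intensities from 6.75 to 6.78. Dstn was at 5.62 in rescued, 5.63 in mutant and 12.57 in WT pools. Srf was at 9.01 ± 0.51 in rescued, 10.68 ± 0.12 in mutant and 9.13 ± 0.13 in WT pools (SD, n = 3 each). Y-linked genes (mean of 3) stood at 7.16 to 9.77 in the rescued and mutant pools and WT replicate 2, against 5.34 in WT replicate 1 and 5.15 in WT replicate 3. Calls are at an adjusted p under 0.05 (limma over all 22180 genes, Benjamini-Hochberg). Of 9 corneal epithelial markers, 2 were called higher and 6 lower in mutant than WT corneas, where 31.6% of all genes were called, and 6 higher and 2 lower in rescued than mutant corneas, where 13.3% were. Dsg1a, for a desmosomal cadherin, was 5.08-fold lower and Krt14, for a basal keratin, 2.33-fold higher in mutant than WT corneas (limma adjusted p = 3.42e-06 and 2.08e-06). The summed linear intensity of the 9 was 60009 to 61669 in rescued, 51219 to 52738 in mutant and 61338 to 62637 in WT pools. Of 12 lens genes, 8 were lower in mutant than WT and 8 in rescued than WT corneas, which is 66.7% in each, against 31.6% and 13.7% of all genes called. The sum of the 12 was 4529 to 5408 in rescued, 4517 to 8181 in mutant and 11135 to 14728 in WT pools. The part of these differences in the results was not tested beyond the settings named beside them. Where the lower of 2 group means was below 6.77, the median of all values, signal above background was not shown and a fold is given as a lower bound.

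Transcripts of 3 of the 4 ligands, Adm, Nppb and Edn1, were far more abundant in mutant than WT corneas and were lower in rescued than in mutant corneas. Among the chosen receptor genes that were measured, log2 differences did not exceed 0.43 in size. Outside the chosen genes Npr3, for another natriuretic peptide receptor, differed by −1.32 between mutant and WT. Adm and Nppb remained well above WT in the rescued corneas. Edn1 did not pass the test against WT there. Ednrb, the endothelin receptor measured, moved the opposite way: it was lower in mutant than WT corneas and higher in rescued than mutant corneas.

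Adm was at log2 intensities of 10.53, 11.02 and 9.67 in the rescued pools, 12.26, 12.15 and 12.17 in the mutant pools and 6.65, 6.65 and 6.80 in the WT pools. The 3 groups did not overlap, with the mutant highest and WT lowest. Its difference between mutant and WT was known when the genes were chosen and is given without a test: 5.49 on the log2 scale, at least 45.1-fold. Adm fell in rescued against mutant corneas by 1.79 on the log2 scale (SE 0.26, limma adjusted p = 0.00197), which is 3.45-fold lower. It was at least 13.1-fold higher in rescued than WT corneas (log2 difference 3.71, SE 0.26, limma adjusted p = 4.62e-05). Since WT was below the median of all values, the share of the mutant minus WT difference undone in the rescued corneas is an upper limit: at most 32.5% on the log2 scale and at most 72.6% on the linear intensity scale, as a description.

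Nppb, which in the heart is a marker of stretch and load, was at 9.59, 10.10 and 9.07 in the rescued pools, 12.31, 11.56 and 11.68 in the mutant pools and 7.43, 7.44 and 7.15 in the WT pools. Again no pool of 1 group overlapped with another group. Nppb was 22.8-fold higher in mutant than WT corneas (log2 difference 4.51, SE 0.26, limma adjusted p = 1.99e-06). It was 4.80-fold lower in rescued than in mutant corneas (log2 difference −2.26, SE 0.26, limma adjusted p = 0.000513). It was still 4.76-fold higher in rescued than WT corneas (log2 difference 2.25, SE 0.26, limma adjusted p = 0.000598), so that 50.1% of the log2 difference was undone.

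Nppa, the other cardiac natriuretic peptide gene, lies next to Nppb with no gene between them in the RefSeq order of the GRCm38.p6 assembly. Its log2 intensity was 6.65, 6.67 and 6.60 in the rescued pools, 7.01, 6.86 and 6.85 in the mutant pools and 6.76, 6.81 and 6.71 in the WT pools, close to the median of all values throughout. The mutant minus WT difference of 0.15 did not pass the test (95% interval −0.00 to 0.29, limma adjusted p = 0.131), and this interval lies wholly below that of Nppb, 3.94 to 5.09. Nppa was lower in rescued than in mutant corneas by a small margin (log2 difference −0.27, SE 0.07, limma adjusted p = 0.0264). That call was lost without mutant replicate 1 (adjusted p = 0.0959), rescued replicate 1 (0.062) or rescued replicate 3 (0.0931). Of the genes on the outer sides of the pair, picked for position after values were seen, Clcn6, beyond Nppa, had a mutant minus WT difference of 0.11 (limma adjusted p = 0.585). The one beyond Nppb, 2510039O18Rik, had a difference of 0.41 (limma adjusted p = 0.002).

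Edn1 was at 9.83, 10.08 and 9.24 in the rescued pools, 11.27, 11.05 and 11.10 in the mutant pools and 9.29, 9.26 and 9.25 in the WT pools. The mutant pools stood apart from both other groups, and rescued replicate 3 lay at the WT level. Edn1 was 3.66-fold higher in mutant than WT corneas (log2 difference 1.87, SE 0.17, limma adjusted p = 3.4e-05). It was 2.68-fold lower in rescued than in mutant corneas (log2 difference −1.42, SE 0.17, limma adjusted p = 0.000782). The rescued minus WT difference was 0.45 (95% interval 0.06 to 0.84, limma adjusted p = 0.131) and became 0.69 without rescued replicate 3 (adjusted p = 0.00247). In the rescued corneas 76.1% of the log2 difference was undone.

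**Figure D1:**
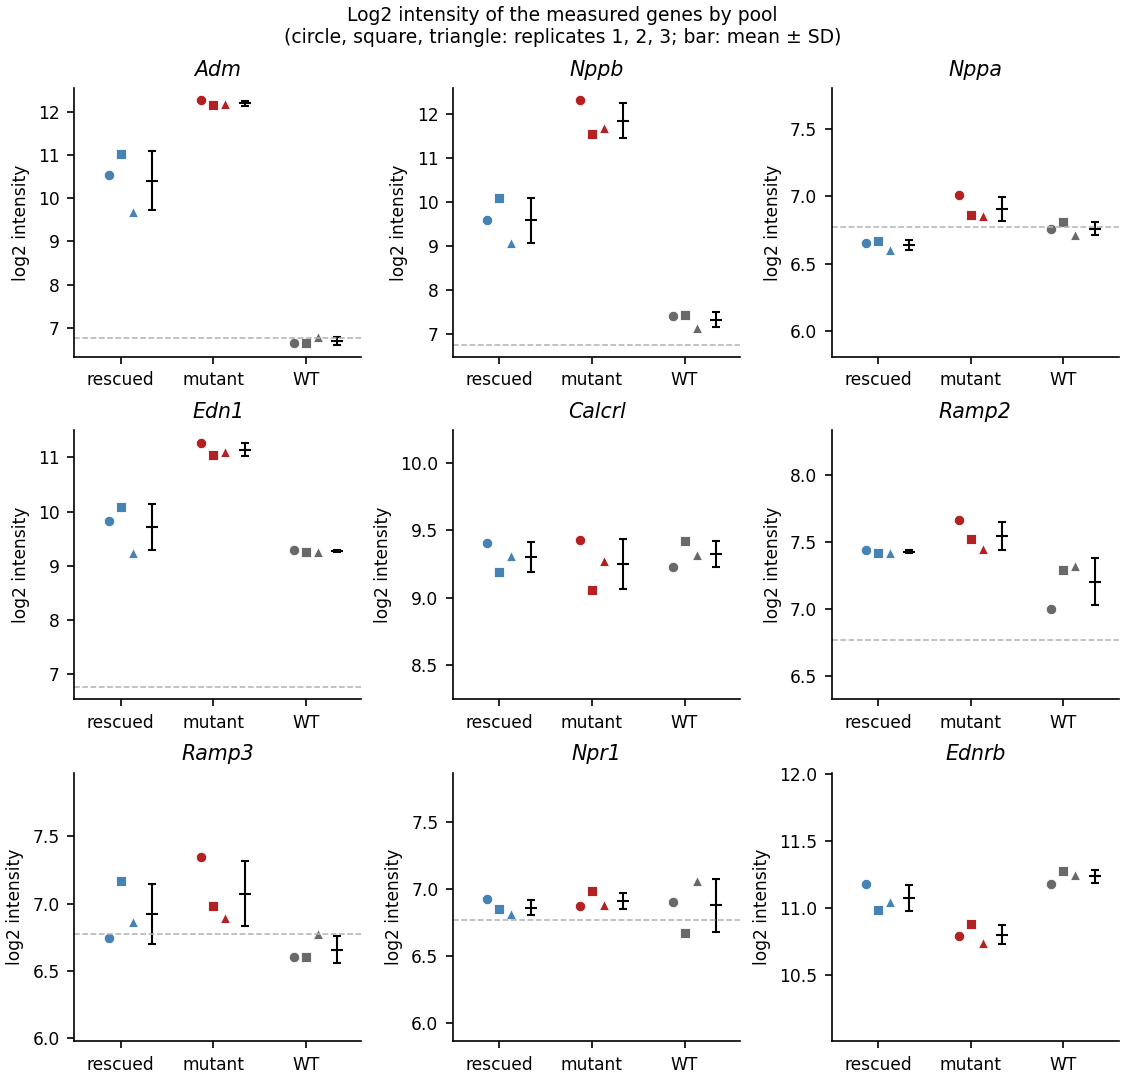
Log2 intensity (vertical axes, whose ranges differ between panels) of the 9 measured genes in the rescued, mutant and WT pools. Points are pools, bars are the mean ± SD of 3 pools, and the dashed line, where it falls within a panel, is the median of all values (6.77). Adm, Nppb and Edn1 are highest in the mutant pools, and Ednrb is lowest there.

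The rescued pools differed more among themselves in these ligands than the other pools did. The range over the 3 rescued pools was 1.34 for Adm, 1.03 for Nppb and 0.84 for Edn1 on the log2 scale. The range over the mutant pools was 0.11, 0.75 and 0.22, and over the WT pools 0.15, 0.29 and 0.04, for the same genes. In all 3 genes rescued replicate 2 was highest and rescued replicate 3 lowest. Srf had the same order, at 9.14 in rescued replicate 1, 9.45 in replicate 2 and 8.45 in replicate 3, and so did the mean log2 intensity of a list of 18 contractile SRF targets that includes Srf, at 10.30, 10.59 and 9.96. Mmp3 and Trim15 had this order too. They were picked for likeness to Adm and Nppb over these arrays, as described below, so this is no separate result. The mean log2 intensity of the pericyte and smooth muscle markers described below also had it, with replicates 1 and 3 close together. That list shares Acta2, Cnn1 and Myh11 with the contractile SRF targets, so it does not show the order apart from them. The mean log2 intensity of the macrophage markers described below had the order as well. The mean of the blood endothelial markers did not, at 7.54, 7.82 and 7.67 in rescued replicates 1, 2 and 3. With 3 pools this order is a description, and no test was made of it.

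**Figure D2:**
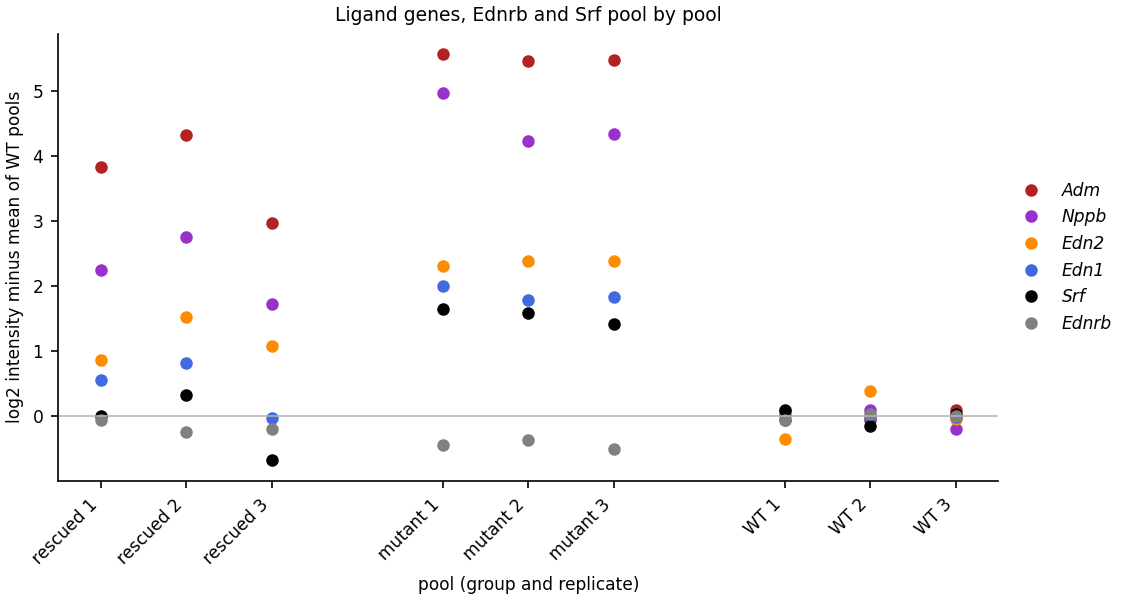
Log2 intensity minus the mean of the WT pools (vertical axis) for 4 ligand genes, Ednrb and Srf in each of the 9 pools (horizontal axis). Each point is 1 pool. Adm, Nppb, Edn1 and Srf are highest in replicate 2 and lowest in replicate 3 among the rescued pools, while Edn2 is lowest in replicate 1.

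Among all 22180 genes, those with the most similar values over the 9 arrays were found by the root mean square difference of centred log2 values. For Adm they were Acta1 (0.27), the gene for skeletal alpha-actin and a contractile SRF target, Mmp3 (0.33), for the matrix protease stromelysin-1, and Nt5e (0.41), for the ecto-enzyme CD73 that makes adenosine. For Nppb they were Myl7 (0.31), for an atrial myosin light chain, Trim15 (0.32) and Olfr1372-ps1 (0.35), and for Edn1 they were Slc20a1 (0.10), for a phosphate transporter, Prune2 (0.14) and Msrb3 (0.14). Nppb ranked 16th in likeness to Adm, at 0.65, and Edn1 ranked 251st, at 1.63. In likeness to Edn1, by contrast, Adm ranked 22081st and Nppb 21196th. The values were centred but not scaled, so these ranks depend on the size of the differences as well as on their pattern. Myl7 was at 8.23, 8.55 and 7.72 in the rescued pools, 10.49, 9.87 and 9.62 in the mutant pools and 6.21, 6.19 and 6.10 in the WT pools. Its WT values lay below the median of all values. Because Myl7 was picked for likeness to Nppb over these arrays, its sharing the order of groups is no separate result.

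Promoter sequence of the ligand genes that moved is shown because the comparison turns on a transcription factor. RefSeq promoters (GRCm38.p6), from 250 bases before to 50 after the start site, were found for 8 of the 9 measured genes. Both strands were searched for the CArG box that serum response factor binds, for ACGTG (the core bound by hypoxia-inducible factors), TGANTCA (AP-1), CATTCC (TEAD factors), AGATAA, which factors of the GATA family bind, and TATAAA, a core promoter element. The CArG box was in none of the 8 windows and in 1.63% of all 32851 promoters of this length, which says nothing of sites outside the windows. Negative positions lie before the start site and positive ones after it. Nppb had CATTCC on the opposite strand with its first base at −105, AGATAA at −84 and TATAAA at −31. Edn1 had CATTCC at −207 and, after the start site and on the opposite strand, AGATAA at 9 and ACGTG at 22. Nppa had TATAAA at −9 and Ramp3 had CATTCC at −228. CATTCC was thus in 3 of 8 windows, against 14.7% of all promoters. AGATAA was in 2 of 8, against 11.2%, and TATAAA in 2 of 8, against 13.6%. ACGTG was in 1 of 8, against 19.6%, and TGANTCA in 0 of 8, against 7.81%. The Adm window held none of the 6 motifs. In the sequences, all on the plus strand, capitals mark matches to any of these motifs. The Adm and Edn1 sequences end just before the start site, and that of Nppb, another transcript of which starts within the window, covers positions −106 to −77.
Adm, chr7:110627407-110627656: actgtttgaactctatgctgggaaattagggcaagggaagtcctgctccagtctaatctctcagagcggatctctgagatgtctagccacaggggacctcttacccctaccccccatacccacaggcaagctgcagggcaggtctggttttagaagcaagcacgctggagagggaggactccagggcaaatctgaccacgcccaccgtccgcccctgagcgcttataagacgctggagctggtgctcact
Nppb, chr4:147985794-147985823: aGGAATGcagctgataaatcagAGATAAcc
Edn1, chr13:42301226-42301475: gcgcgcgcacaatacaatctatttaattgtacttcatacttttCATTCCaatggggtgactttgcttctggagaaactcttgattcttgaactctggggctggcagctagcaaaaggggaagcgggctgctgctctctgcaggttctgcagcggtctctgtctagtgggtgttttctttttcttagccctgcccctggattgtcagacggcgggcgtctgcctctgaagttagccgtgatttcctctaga

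The adrenomedullin receptor genes changed little. Calcrl was at 9.41, 9.19 and 9.31 in the rescued pools, 9.43, 9.06 and 9.27 in the mutant pools and 9.23, 9.42 and 9.32 in the WT pools, and all 3 groups overlapped. Its difference was 0.05 between rescued and mutant (95% interval −0.18 to 0.28, limma adjusted p = 0.816) and −0.07 between mutant and WT (−0.30 to 0.16, adjusted p = 0.667). Between rescued and WT it was −0.02 (−0.25 to 0.21, adjusted p = 0.932).

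Ramp2 was at 7.44, 7.42 and 7.42 in the rescued pools, 7.66, 7.52 and 7.45 in the mutant pools and 7.00, 7.29 and 7.32 in the WT pools. The mutant pools lay above the WT pools, by 1.27-fold (log2 difference 0.34, SE 0.09, limma adjusted p = 0.0182), a call that was lost without mutant replicate 1 (adjusted p = 0.0703) or with Y-linked expression as a covariate (adjusted p = 0.0651). Ramp3 was at 6.74, 7.17 and 6.86 in the rescued pools, 7.35, 6.98 and 6.89 in the mutant pools and 6.60, 6.60 and 6.77 in the WT pools. Ramp3 was higher, at least 1.33-fold, in mutant than WT corneas (log2 difference 0.41, SE 0.14, limma adjusted p = 0.0464). That call failed in 9 of 21 alternatives, among them leaving out mutant replicate 1 (log2 difference 0.28, adjusted p = 0.15), mutant replicate 2, rescued replicate 3 or any 1 of the WT pools. In rescued corneas neither subunit differed from mutant (limma adjusted p = 0.492 for Ramp2 and 0.557 for Ramp3) or from WT (0.15 and 0.266) at the threshold.

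Calcrl and Ramp2 are abundant in endothelium, and markers of vessels were set beside them. Of 20 blood endothelial markers, 18 rose and 1 fell in mutant against WT corneas, with a median log2 difference of 1.16 against −0.02 over all genes. Their summed linear intensity was 4629 to 5413 in the rescued pools, 5915 to 7840 in the mutant pools and 3099 to 3333 in the WT pools. Means below the median of all values were found for 2, 0 and 13 of the 20 in the rescued, mutant and WT groups. Cdh5, the gene for VE-cadherin, had an intensity at least 10.4-fold higher in mutant than WT corneas (limma adjusted p = 8.26e-07). Of 12 pericyte and smooth muscle markers, 7 rose and 1 fell, while Pdgfrb, Kcnj8, Des and Higd1b did not pass the test. Their sum was 10466 to 14537 in rescued, 19732 to 22561 in mutant and 3412 to 3853 in WT pools. This linear sum is weighted to its brightest gene in the mutant pools, Acta2, with a mean log2 intensity of 13.84 there and 8.93 in WT pools. Acta2, Cnn1 and Myh11 are also in the list of contractile SRF targets, so the sum is no measure of these cells alone. Of 15 macrophage markers 13 rose and 2 fell, and of 6 lymphatic endothelial markers 5 rose, in a comparison in which 15.1% of all genes were called higher and 16.5% lower. The part of these cells in the peptide and receptor values was not tested.

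Npr1, the receptor for both cardiac natriuretic peptides, was at 6.92, 6.85 and 6.81 in the rescued pools, 6.87, 6.98 and 6.88 in the mutant pools and 6.90, 6.67 and 7.06 in the WT pools. The groups overlapped in every comparison, and the difference was −0.05 between rescued and mutant (95% interval −0.26 to 0.16, limma adjusted p = 0.796). It was 0.03 between mutant and WT (−0.18 to 0.25, adjusted p = 0.832). All 9 values lay near the median of all values, so a low level of Npr1 could not be told from background.

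Ednrb was at 11.18, 10.99 and 11.05 in the rescued pools, 10.79, 10.88 and 10.74 in the mutant pools and 11.18, 11.28 and 11.25 in the WT pools. The mutant pools were the lowest and did not overlap with either other group. Ednrb was 1.35-fold lower in mutant than WT corneas (log2 difference −0.43, SE 0.07, limma adjusted p = 0.00117). It was 1.21-fold higher in rescued than in mutant corneas (log2 difference 0.27, SE 0.07, limma adjusted p = 0.0332). The second call was lost without mutant replicate 1 or 3 or rescued replicate 1 or 3, with adjusted p up to 0.116. Rescued and WT pools overlapped (log2 difference −0.16, limma adjusted p = 0.187). Melanocytes and Schwann cells are known to use Ednrb. Of 8 melanocyte markers 1, Dct, fell in mutant against WT corneas, and 5 of the 8 had means below the median of all values in each group. Of 6 nerve and Schwann cell markers none was called in the 3 comparisons (limma, adjusted p under 0.05), and 3 of the 6 had means below that median in each group. Corneal endothelial markers fell in mutant against WT corneas in 7 of 7 genes. Over all genes 31.6% were called between mutant and WT, 16.5% lower, 13.3% between rescued and mutant and 13.7% between rescued and WT. The summed linear intensity of the corneal endothelial markers was 14613 to 15731 in rescued, 12291 to 14622 in mutant and 18085 to 18934 in WT pools. The part of these cells in the Ednrb values was not tested.

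**Figure D3:**
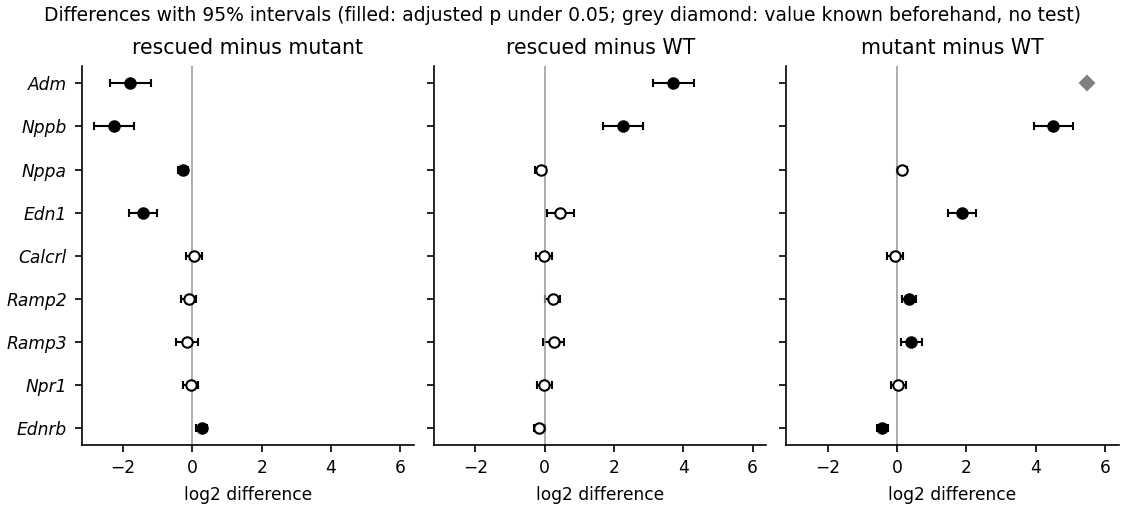
Log2 difference (horizontal axes) of each of the 9 genes between rescued and mutant, rescued and WT, and mutant and WT corneas. Points are limma estimates from 3 pools a group with 95% intervals, filled where the adjusted p was under 0.05, and the grey diamond is the Adm value given without a test. Adm and Nppb lie far from 0 in each panel. Edn1 does so except between rescued and WT, where its point is open. Calcrl and Npr1 lie near 0.

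Counted together, 5 of the 9 genes were called higher and 1 lower in mutant than WT corneas, where 31.6% of all genes were called, 15.1% higher and 16.5% lower. The higher count includes Adm, whose difference was known. Between rescued and mutant corneas 1 of the 9 was called higher and 4 lower, against 13.3% of all genes called, 6.46% higher and 6.88% lower. That total of 5 became 3 without mutant replicate 1, rescued replicate 1 or rescued replicate 3. Between rescued and WT corneas 2 were called, both higher, against 13.7% of all genes, 6.28% higher and 7.43% lower. The total of 2 became 3 without rescued replicate 3, and the total of 6 between mutant and WT fell to 4 without mutant replicate 1 or with the Y-linked covariate. Groups did not overlap between mutant and WT corneas in 6 genes that were higher and 1 that was lower, where 44.7% of all genes did not overlap, 21% higher and 23.7% lower. Between rescued and mutant corneas this held for 1 higher and 5 lower, against 32.2% of all genes, 15.1% higher and 17.1% lower. Between rescued and WT corneas it held for 3 higher and 1 lower, against 31.6% of all genes, 13.4% higher and 18.2% lower. The median log2 difference of the 9 genes was 0.34 between mutant and WT, −0.15 between rescued and mutant and 0.23 between rescued and WT, against −0.02, −0.00 and −0.01 over all genes. The comparisons share groups, so their counts are not independent.

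The other genes of the 3 systems added a second endothelin ligand and its processing enzyme. Of 33 further genes measured, 6 were called higher and 8 lower in mutant than WT corneas, and the median log2 difference was −0.03 against −0.02 over all genes. Between rescued and mutant corneas 4 were higher and 3 lower, and between rescued and WT corneas 4 and 4. These are 42.4%, 21.2% and 24.2% of the 33, against 31.6%, 13.3% and 13.7% of all genes. Edn2, the gene for endothelin 2, was at 8.00, 8.66 and 8.22 in the rescued pools, 9.44, 9.52 and 9.52 in the mutant pools and 6.79, 7.52 and 7.10 in the WT pools, and no groups overlapped. Edn2 was 5.12-fold higher in mutant than WT corneas (log2 difference 2.36, SE 0.19, limma adjusted p = 1.61e-05). It was 2.30-fold lower in rescued than in mutant corneas (limma adjusted p = 0.00316) and 2.22-fold higher in rescued than WT corneas (adjusted p = 0.00428).

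Ece1, the gene for endothelin-converting enzyme 1, was at 10.86, 10.91 and 10.63 in the rescued pools, 11.28, 11.28 and 11.07 in the mutant pools and 10.22, 10.13 and 10.15 in the WT pools. It was 2.06-fold higher in mutant than WT corneas (log2 difference 1.04, SE 0.09, limma adjusted p = 2.16e-05) and 1.33-fold lower in rescued than in mutant corneas (adjusted p = 0.0152). Edn3, the gene for endothelin 3, had a mutant minus WT difference of −0.03 (limma adjusted p = 0.826), and Ece2 one of 0.03 (adjusted p = 0.832). Downstream of the receptors, Plcb4, for a phospholipase C, was 1.35-fold and Gna11, for a Gq-class alpha subunit, 1.21-fold lower in mutant than WT corneas (limma adjusted p = 0.00367 and 0.0136). The related genes Gnaq (−0.14, limma adjusted p = 0.209), Plcb1 (−0.04, adjusted p = 0.676) and Plcb3 (−0.06, adjusted p = 0.597) did not pass. Of the 11 further endothelin genes 2 were thus called higher and 2 lower, which is 36.4% against 31.6% of all genes.

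In the natriuretic peptide system 3 of 12 further genes were called higher and 4 lower in mutant than WT corneas. This is 58.3%, against 31.6% of all genes. Between rescued and mutant corneas 33.3% of the 12 were called, and between rescued and WT corneas 41.7%, against 13.3% and 13.7% of all genes. Besides that of Nppb, the largest log2 difference between mutant and WT in this system was in Npr3. This gene encodes the clearance receptor that removes natriuretic peptides. Npr3 was at 9.86, 9.95 and 9.96 in the rescued pools, 9.55, 9.56 and 9.52 in the mutant pools and 10.88, 10.87 and 10.84 in the WT pools, so that the 3 groups were cleanly apart. It was 2.49-fold lower in mutant than WT corneas (log2 difference −1.32, SE 0.06, limma adjusted p = 5.79e-07) and 1.91-fold lower in rescued than WT corneas (adjusted p = 1.75e-05). It was 1.30-fold higher in rescued than in mutant corneas (log2 difference 0.38, SE 0.06, limma adjusted p = 0.00197). Pcsk6, for a proprotein convertase, was 2.31-fold lower in mutant than WT corneas (limma adjusted p = 2.58e-05) and 1.82-fold higher in rescued than in mutant corneas (adjusted p = 0.000831). Furin, for the convertase that cuts the precursor of B-type natriuretic peptide, was higher in mutant than WT corneas by 0.66 on the log2 scale (limma adjusted p = 0.000191). Of 2 phosphodiesterase genes, Pde5a was 1.66-fold lower and Pde2a at least 1.81-fold higher in mutant than WT corneas (limma adjusted p = 2.22e-05 and 0.00154). The cGMP kinase gene Prkg1 differed by −0.43 on the log2 scale between mutant and WT corneas (limma adjusted p = 0.00822). The other, Prkg2, was called higher in mutant than WT corneas (log2 difference 0.88, limma adjusted p = 5.03e-05). Prkg2 averaged 6.71 in mutant and 5.83 in WT pools, so signal above background was not shown in either group. Nppc, the gene for C-type natriuretic peptide, and its receptor gene Npr2 did not pass the test between mutant and WT (limma adjusted p = 0.675 and 0.0749).

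In the adrenomedullin system 3 of 10 further genes were called between mutant and WT corneas, close to the 31.6% over all genes, and none between rescued and mutant, where 13.3% of all genes were called. Adm2, for the related peptide intermedin, was at 6.72, 6.90 and 6.81 in the rescued pools, 7.05, 7.47 and 7.43 in the mutant pools and 6.71, 6.22 and 6.76 in the WT pools. Adm2 was higher, at least 1.69-fold, in mutant than WT corneas (log2 difference 0.76, limma adjusted p = 0.0041). Ackr3, for an atypical receptor that takes up adrenomedullin as well as chemokines, was 1.36-fold lower, and Mme, for the peptide-degrading enzyme neprilysin, 1.65-fold lower (limma adjusted p = 0.00283 and 0.00306). Pam, for the enzyme that amidates adrenomedullin, had a mutant minus WT difference of 0.01 (95% interval −0.13 to 0.16, limma adjusted p = 0.905), and Ramp1, which makes Calcrl a receptor for calcitonin gene-related peptide, one of 0.06 (adjusted p = 0.754).

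**Figure D4:**
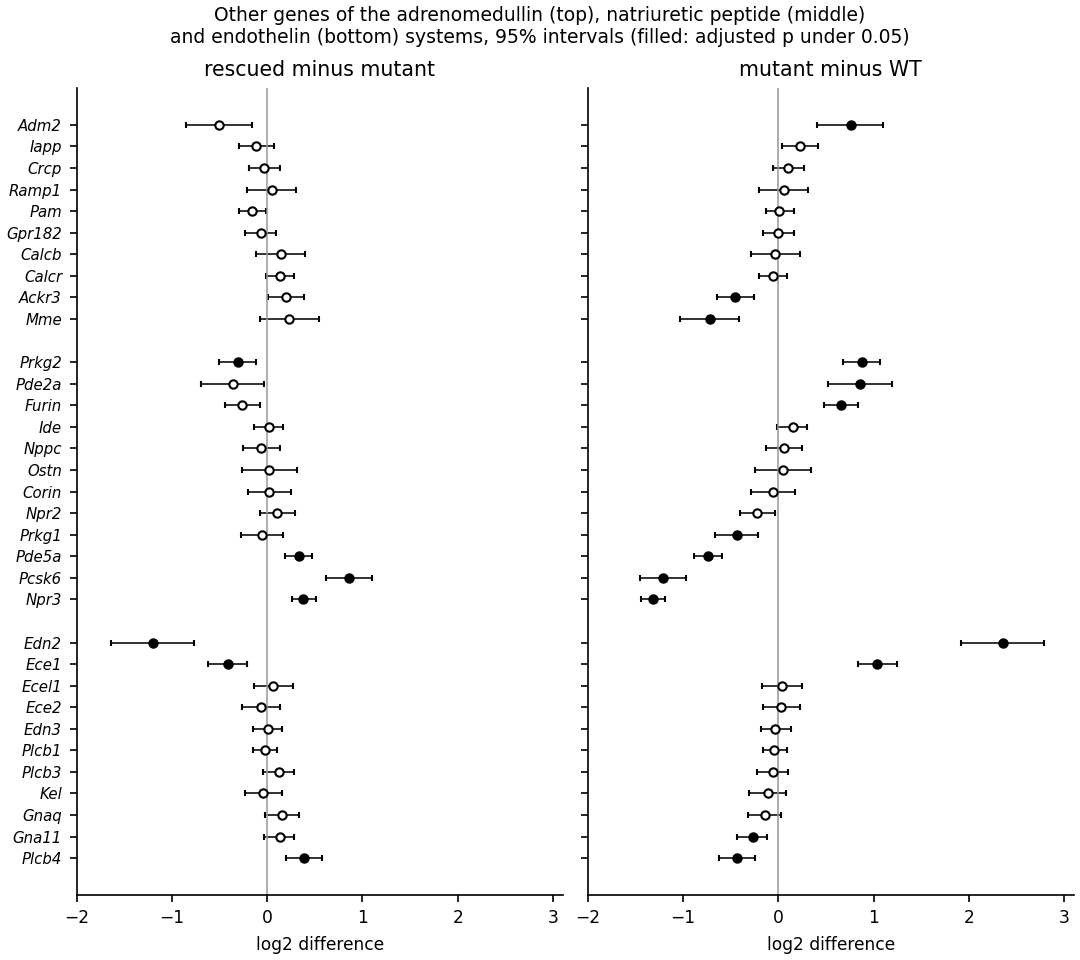
Log2 difference (horizontal axes) of 33 further genes of the adrenomedullin, natriuretic peptide and endothelin systems between rescued and mutant and between mutant and WT corneas. Points are limma estimates from 3 pools a group with 95% intervals, filled where the adjusted p was under 0.05. Edn2 and Ece1 are the highest in the endothelin group and Npr3 the lowest in the natriuretic peptide group of the mutant minus WT panel.

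Lists of other vasoactive genes, of hypoxia response genes and of contractile SRF targets were set beside the peptide genes. Of 28 other vasoactive genes 6 rose and 3 fell in mutant against WT corneas, which is 32.1% and close to the 31.6% called over all genes. They included Tacr1, for the substance P receptor, at least 2.00-fold higher (limma adjusted p = 0.000379), Aplnr, for the apelin receptor, at least 1.97-fold higher (adjusted p = 0.00041) and Nos3, for endothelial nitric oxide synthase, 1.35-fold higher (adjusted p = 0.00163). Ddah1, for an enzyme that breaks down inhibitors of nitric oxide synthase, was 2.68-fold lower (limma adjusted p = 1.15e-06). Between rescued and mutant corneas 1 of the 28 was higher and 3 were lower, close to the 13.3% called over all genes.

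Adm is a known target of hypoxia-inducible factors. Of 17 hypoxia response genes, 10 rose and 4 fell in mutant against WT corneas, with a median log2 difference of 0.33 against −0.02 over all genes. This is 82.4% called, against 31.6% of all genes. Between rescued and mutant corneas 2 rose and 10 fell, with a median of −0.34 against −0.00. This is 70.6% called, against 13.3% of all genes. Bnip3, for a mitochondrial autophagy receptor, was 2.97-fold higher in mutant than WT corneas (limma adjusted p = 7.29e-07) and 2.09-fold lower in rescued than in mutant corneas (adjusted p = 2.63e-05). Vegfa was 2.43-fold and Hk2, for a hexokinase, 2.15-fold higher in mutant than WT corneas. Others in the list had the opposite order or none: Pfkfb3, for a glycolytic regulator, averaged 8.26 in rescued, 7.80 in mutant and 8.78 in WT pools. Egln3, for an oxygen sensor, averaged 12.79 in rescued, 12.06 in mutant and 12.89 in WT pools, and Car9, for a carbonic anhydrase, 7.89, 7.75 and 7.83 in the same groups. All 18 contractile SRF targets measured, Srf included, were higher in mutant than in WT and lower in rescued than in mutant corneas, with median log2 differences of 1.94 and −1.17. All were called in both comparisons, where 31.6% and 13.3% of all genes were called. Acta1 was 56.6-fold higher in mutant than WT corneas and still 17.9-fold higher in rescued than WT corneas.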

How the data were processed

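The authors deposited normalised log2 intensities, 1 value per probe set and array. The sources used here do not say how they were normalised, and that the logarithm has base 2 was read from the range of values, 2.14 to 14.318. Total RNA was prepared with Trizol, converted to cDNA by way of cRNA and labelled with biotin, per the labels' protocols. Of 41345 rows, 23521 had exactly 1 symbol in the platform annotation, 1814 had several and 16010 had none listed. The brightest row stood for each of 1082 genes with more than 1, leaving 22180 genes, with no filter on intensity.

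The 3 groups were fitted together with limma 3.58.1 (R 4.3.3; lmFit, contrasts, eBayes), two-sided. SEs and 95% intervals are moderated. The labels number the pools but do not say how the mice were assigned to them, so p-values measure the spread between pools, and the number of arrays limits the precision. The fit was also run on simulated data, with independent noise for each gene and shifts in the mutant group alone. That run held no effects shared by the genes of a pool, and no result here rests on it. Intensities of different genes were not ranked against each other. The members and gene lists were chosen with earlier results of these data known; lists are described by counts and medians. Named genes were the members, Dstn and Srf, up to 5 called genes with the largest difference in each system or vasoactive list and 3 in each other list, and the 3 most similar genes; Myl7 levels, Pfkfb3, Egln3, Car9, genes that did not pass, and the neighbours of Nppb were added after their values were seen. Alternatives numbered 21: quantile normalisation, median centring, 2 intensity filters, 2 choices of row, moderation, array subset, array weights, replicate block, a Y-linked covariate, an unmoderated test and leaving out each array. Deviations of same-numbered pools correlated between −0.016 and 0.063, so no pairing by number was seen. This does not settle whether the pools were paired, since the labels do not say how they were numbered. Figures used matplotlib 3.10.9 (Python 3.11.15).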

Additional observations from a re-analysis of the deposited data

Results flagged for a closer look

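Npr1 has a second probe set that was dimmer on average and stood outside the comparisons. It had log2 intensities of 6.75, 6.94 and 6.84 in the rescued pools, 6.87, 6.84 and 6.91 in the mutant pools and 6.60, 6.56 and 6.47 in the WT pools. Its mutant pools lay above the WT pools, with a log2 difference of 0.33 (limma adjusted p = 0.0048), whereas the brighter probe set had a difference of 0.03 (adjusted p = 0.832). The 2 probe sets of Npr1 therefore disagree, and both lie near the median of all values. No group had enough pools for a test of single outlying pools.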

How the results depend on the processing

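Adm, Nppb and Edn1 kept their direction and their call between rescued and mutant in all 21 alternatives, as did Nppb and Edn1 between mutant and WT, Ednrb between mutant and WT, and Adm and Nppb between rescued and WT. The difference between rescued and mutant was −2.09 to −1.42 for Adm, −2.52 to −2.01 for Nppb and −1.61 to −1.19 for Edn1 over these settings. Of 564 single-gene values under alternatives, 527 kept direction and side of the threshold. The count called between rescued and mutant was 3 in a fit of only the 6 arrays compared, where Nppa (adjusted p = 0.0524) and Ednrb (0.0652) lost their calls, and 3 to 5 when single pools were left out. With the replicate number as a block, 5 members were called between mutant and WT, where Ramp3 lost its call at a difference of 0.41 (adjusted p = 0.0845), and 4 between rescued and mutant, where Ednrb lost its call at 0.27 (adjusted p = 0.0658). The block changed no other call of a member. Values near 0 changed sign. Calcrl ranged from −0.16 to 0.0270 between mutant and WT, −0.0478 to 0.14 between rescued and mutant and −0.0761 to 0.0362 between rescued and WT when single pools were left out, and was 0.0026 between rescued and WT after quantile normalisation. Npr1 ranged from −0.0703 to 0.13 between mutant and WT and −0.12 to 0.0745 between rescued and WT without single pools. Between rescued and WT Npr1 was 0.14 as the mean of its rows, 0.30 (adjusted p = 0.0205) on its more variable row, 0.0255 with array weights and 0.0691 with the Y-linked covariate. The cause of the other changes was not tested.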
